A study of Caenorhabditis elegans with 60 samples.

Results

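The low-recombination centre of Caenorhabditis elegans chromosome IV was described here by its H3K9me3, the histone mark of constitutive heterochromatin, in embryos of 5 genotypes. Its members were the 500 bp windows of the deposited table that lie on IV between the recombination boundaries of the left and the right arm, from the window starting at 3896328 to the window ending at 12969788 (ce10). There were 18147 such windows among 200579 in all. They hold the proximal piRNA cluster, taken as the 4999 windows from 4.5 to 7 Mb, and 13148 windows of the rest of the centre. The bounds are positions and use no measured value.

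In this worm the autosome arms recombine often and are rich in repeats and H3K9me3, while the centres are gene-dense and carry little of the mark. H3K9 methylation is made in steps: MET-2 gives mono- and dimethylation and SET-25 gives trimethylation. NRDE-3 is an Argonaute of somatic cells that takes siRNAs to nascent transcripts, and LIN-61 is a protein with MBT repeats that binds methylated H3K9. Chromosome IV holds most piRNA genes of the worm, short transcription units for the 21U-RNAs that guide the Argonaute PRG-1 in the germ line. In RefSeq's annotation of assembly WBcel235, 14714 of 15363 genes annotated as piRNA (95.8%) lie on IV.

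The series measured H3K9me3 by chromatin immunoprecipitation and sequencing, each precipitated library beside an input library of the same number. The animals were early embryos, taken before the bean stage from synchronized populations. The genotypes were the mutants met-2 nrde-3, nrde-3, lin-61 met-2 and lin-61, and the wild type N2 (Bristol). The alleles were met-2(n4256) on chromosome III, nrde-3(tm1116) on X and lin-61(tm2649) on I. No single met-2 mutant is among the samples used here, so MET-2 loss is seen as the difference between each double mutant and its single mutant. The labels name 3 preparations per genotype, of which N2 replicate 1 was left out, giving 14 preparations. The protocol text differs from the sample titles: it names an antibody against LEM-2, where the titles name H3K9me3, and it gives 2 biological replicates at one point and 3 at another. Nothing else says that preparations came from separate cultures, so p-values measure the spread between these preparations, which may be technical.

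Library checks came before any result. A short stretch of chromosome III lost most of its reads in the H3K9me3 and the input libraries of lin-61 met-2, and was taken as the met-2 deletion without an annotation of this build to set it against. There H3K9me3 libraries labelled met-2 nrde-3 had 0.0835 to 0.0979 times the depth of a typical window, and those labelled nrde-3 had 1.00 to 1.32 times. The inputs went the other way: those labelled met-2 nrde-3 had 1.00 to 1.04 times, and those labelled nrde-3 had 0.0604 to 0.0643 times. Input labels of these 2 genotypes therefore cross, while libraries of lin-61 met-2 and lin-61 went with their labels there. Columns were used as labelled, so met-2 nrde-3 and nrde-3 levels were each taken over inputs that at this stretch look like those of the other. Counts for the comparisons they touch are also given from the H3K9me3 libraries alone. N2 replicate 1 stood apart in another way. Over the N2 islands described further on, its input had 2.96 times the depth of the median window of the centre, against 0.863 to 0.951 in the other inputs. Its H3K9me3 library had 1.04 times, against 4.22 to 4.76 in N2 replicates 2 and 3. The titles also carry 2 library numbers, with met-2 nrde-3, nrde-3 and N2 under one and lin-61 met-2 and lin-61 under the other. Differences of the lin-61 genotypes from N2 cannot be told apart from differences between these library series.

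Of the 18147 windows, 16713 (92.1%) were tested. The 1434 others had inputs that differed by more than 1.5 times between genotypes, and 1430 of these had the lower input in the lin-61 series. Libraries held 22265768 to 65845682 counts. The median window of the centre had 110 to 233 counts in H3K9me3 libraries and 232 to 301 in inputs of the N2 series, against 99 to 194 and 208 to 280 in the lin-61 series. A level below is the log2 ratio of H3K9me3 over input after scaling, with 8 added to each scaled count, so 0 means that the mark stood at the depth of the input relative to all windows. A window was called where edgeR's quasi-likelihood test of the change in H3K9me3 over input gave a Benjamini-Hochberg adjusted p under 0.05 over all 184418 windows tested in the genome. Means of groups are given ± SD over preparations, with n = 3 for each mutant and n = 2 for N2.

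The centre of IV stood highest in met-2 nrde-3. Its mean level in the 3 preparations was 0.13, 0.13 and 0.17 in met-2 nrde-3, and -0.01, -0.09 and -0.04 in nrde-3. It was -0.07, -0.04 and -0.04 in lin-61 met-2, and -0.12, -0.13 and -0.09 in lin-61. The 2 N2 preparations stood at -0.09 and -0.14. Both double mutants lay above their single mutants with no overlap, met-2 nrde-3 by 0.19 and lin-61 met-2 by 0.07. Against N2 the difference was 0.26 for met-2 nrde-3, 0.07 for lin-61 met-2 and 0.07 for nrde-3. That of lin-61, 0.00048, was far below the spread between preparations. The preparations overlapped only in lin-61 against N2, although nrde-3 replicate 2 and N2 replicate 2 both stood at -0.09. By exact two-sided permutation, p was 0.1 in both comparisons of 3 with 3 and 0.2 in the 3 comparisons with N2 that did not overlap, the smallest values such groups allow (all 0.24 after adjustment over the 6). It was 0.8 in lin-61 against N2.

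**Figure D1:**
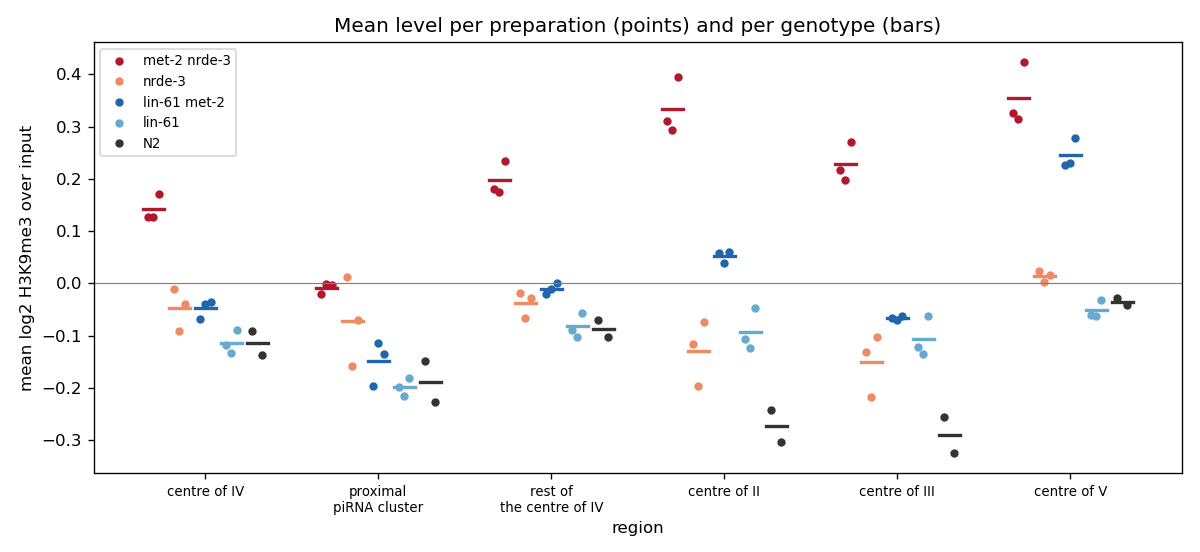
Mean log2 ratio of H3K9me3 over input (y axis) in the centre of IV, its piRNA cluster, its rest and the centres of II, III and V (x axis). Points are preparations and bars are genotype means; met-2 nrde-3 averaged 0.14 in the centre of IV, against 0.33 in that of II and 0.35 in that of V.

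The centre of IV was set against the centres of II, III and V. In met-2 nrde-3 it stood below each of these 3, and in N2 it stood above II and III and below V. The centre of IV averaged 0.14 ± 0.03 in met-2 nrde-3, while the centres of II, III and V averaged 0.33 ± 0.05, 0.23 ± 0.04 and 0.35 ± 0.06 there. N2 had another order, with -0.11 ± 0.03 on IV, -0.27 ± 0.04 on II, -0.29 ± 0.05 on III and -0.04 ± 0.01 on V. Subtracting the mean of these 3 centres within each preparation gave -0.16 ± 0.03 in met-2 nrde-3, 0.04 ± 0.03 in nrde-3, -0.12 ± 0.02 in lin-61 met-2, -0.03 ± 0.01 in lin-61 and 0.09 ± 0.0019 in N2. IV thus stood above that mean in nrde-3 and N2 and below it in the other 3 genotypes, though V was higher than IV in all 5 genotypes and III was lower than IV in lin-61 met-2. Part of the excess in nrde-3 and N2 lay at the left end of IV, described below. Beyond 4.3 Mb IV averaged -0.08 in nrde-3 and -0.18 in N2, against -0.05 and -0.11 over the whole centre, and so was closer to that mean. With the whole centre, the preparations did not overlap in any of the 6 comparisons. The exact two-sided permutation p was at the smallest value the groups allow in each, 0.1 or 0.2, and 0.2 after adjustment over the 6.

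Few windows of the centre stood high, and which ones did depended on the genotype. A level of at least 1 was reached in 1170 of 16713 windows in met-2 nrde-3, 306 in nrde-3, 494 in lin-61 met-2, 186 in lin-61 and 651 in N2. As a share this was 7.0% in met-2 nrde-3, against 6.35% of all tested windows of the genome, 1.83% in nrde-3 (9.05% of all), 2.96% in lin-61 met-2 (4.07%), 1.11% in lin-61 (4.86%) and 3.90% in N2 (16.9%). The share of met-2 nrde-3 was near that of the genome, and those of the other genotypes were below it. Between preparations the number varied most in nrde-3, where replicates 1, 2 and 3 had 304, 545 and 143 such windows. The double mutants shared 466 high windows, 39.8% of those of met-2 nrde-3 and 94.3% of those of lin-61 met-2. Nearly all high windows of lin-61 met-2 were thus also high in met-2 nrde-3. The smaller share of the met-2 nrde-3 list is largely set by the length of the lin-61 met-2 list, 494 against 1170. These genotypes also come from different library series. Of the 15517 windows with a level below 0.5 in N2, 831 were at 1 or more in met-2 nrde-3, 0 in nrde-3, 263 in lin-61 met-2 and 39 in lin-61. Of the 651 windows at 1 or more in N2, a choice that favours lower values elsewhere, 204 were still there in met-2 nrde-3, 306 in nrde-3, 151 in lin-61 met-2 and 134 in lin-61.

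The N2 mark of the centre was concentrated at its left end. From the start of the centre to 4.3 Mb, an edge drawn after the values were seen, 393 of 748 tested windows were at 1 or more in N2, against 258 of the 15965 windows further in. The left arm of IV, which adjoins this edge, also carried the mark in N2. It averaged 0.72 ± 0.08, with 29.2% of its tested windows at 1 or more. A high N2 level is therefore not particular to the edge. The mean level of this edge was 0.40 ± 0.07 in met-2 nrde-3, 0.73 ± 0.33 in nrde-3, 0.27 ± 0.03 in lin-61 met-2, 0.40 ± 0.05 in lin-61 and 1.26 ± 0.09 in N2. Further in, the mean level was 0.13 ± 0.02 in met-2 nrde-3, -0.08 ± 0.06 in nrde-3, -0.06 ± 0.02 in lin-61 met-2, -0.14 ± 0.02 in lin-61 and -0.18 ± 0.04 in N2. N2 was thus the highest of the 5 genotypes at the edge and the lowest inside, while nrde-3 lay above lin-61 in both. Since the edge was drawn after the N2 values were seen, a high N2 level there is partly given by that choice. The same holds for lower calls against N2 at the edge.

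Along the centre in bins of 100 kb, nrde-3 and N2 had their maximum at IV 4100001 to 4200000, where nrde-3 averaged 1.19 ± 0.46 and N2 1.88 ± 0.09. The highest bin of lin-61, IV 3900001 to 4000000 at 0.53 ± 0.09, also lay at the left end. The double mutants had theirs far inside, at IV 7600001 to 7700000, where met-2 nrde-3 averaged 1.13 ± 0.15 and lin-61 met-2 0.45 ± 0.06. The next bins of met-2 nrde-3 were IV 11900001 to 12000000 at 0.82 ± 0.10 and IV 8300001 to 8400000 at 0.80 ± 0.13. The lowest bins of met-2 nrde-3, lin-61 met-2 and lin-61 included IV 5100001 to 5200000, inside the piRNA cluster, at -0.15 ± 0.03, -0.30 ± 0.03 and -0.38 ± 0.01. The lowest bin of nrde-3 was IV 11500001 to 11600000, at -0.21 ± 0.10, and that of N2 was IV 7000001 to 7100000, at -0.35 ± 0.06. Of 91 bins, met-2 nrde-3 was above nrde-3 in 74 and above N2 in 79, and lin-61 met-2 was above lin-61 in 69.

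**Figure D2:**
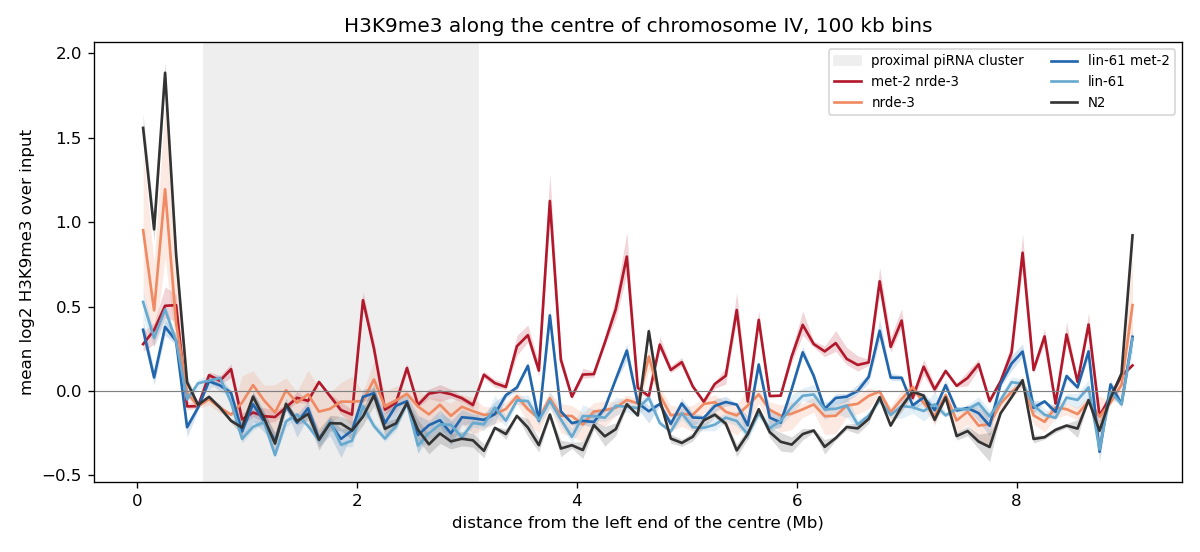
Mean log2 ratio of H3K9me3 over input in 100 kb bins (y axis) against the distance from the left end of the centre in Mb (x axis), with the lowest to highest preparation shaded around each genotype's line and the piRNA cluster in grey. met-2 nrde-3 has its maximum of 1.13 inside the centre, and N2 peaks at its left end, at 1.88.

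The comparison of met-2 nrde-3 with nrde-3 asked what the loss of MET-2 changes where NRDE-3 is missing. In the centre of IV far more windows rose than fell. edgeR called 2520 windows higher (15.1% of those tested, against a background of 11.3% over all windows) and 381 lower (2.28%, against 14.3%), or 17.4% in either direction against 25.7%. The H3K9me3 libraries alone gave 2600 higher and 431 lower. Higher windows had a median log2 change of 0.97 and reached 4.53, and lower ones had a median of -0.86. The centres of II, III and V had larger shares higher, 29.8%, 23.8% and 25.1%, so the share on IV was nearer to the background than theirs. The edge to 4.3 Mb held 238 of the 381 lower windows (62.5%). Lower calls thus took 31.8% of the edge and 0.896% of the windows further in. In the adjoining left arm of IV they took 22.2%.

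Higher windows joined into 254 loci of at least 3 called windows, 1158 kb in all, and lower ones into 28 loci with 148 kb. The strongest gain was at IV 8259309 to 8269308, where nrde-3 and N2 had next to no mark. The level there was 2.59, 2.37 and 2.94 in the met-2 nrde-3 preparations, and -0.08, 0.04 and 0.0023 in those of nrde-3. It was 1.31 ± 0.08 in lin-61 met-2, 0.31 ± 0.11 in lin-61 and 0.05 ± 0.03 in N2. The change of met-2 nrde-3 against nrde-3 was 2.71 on the log2 scale (median adjusted p = 2.41e-11, edgeR), and the groups were far apart.

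Gains of a similar size were found at 3 more of the 5 leading loci, all outside the piRNA cluster, but there N2 stood further above input. At IV 9546803 to 9560302 the level was 2.88, 2.56 and 3.14 in met-2 nrde-3, against 0.21, 0.52 and 0.33 in nrde-3 (change 2.56, median adjusted p = 5.45e-10, edgeR). At IV 11970293 to 11996792, 26500 bp long, it was 2.92, 2.67 and 3.17 in met-2 nrde-3, against 0.27, 0.69 and 0.25 in nrde-3 (2.56, 4.73e-10). At IV 10666299 to 10681297 it was 2.66 ± 0.30 in met-2 nrde-3, against 0.18 ± 0.13 in nrde-3 (2.52, 1.86e-09). These loci differed in lin-61 met-2. It had 1.67 ± 0.14 at the locus near 9.5 Mb and 1.5 ± 0.15 at the one near 10.7 Mb, but 0.86 ± 0.06 at the one near 12 Mb, where lin-61 stood at 0.51 ± 0.01. In the same order N2 had 0.65 ± 0.08, 0.28 ± 0.05 and 0.74 ± 0.08. The locus near 12 Mb holds an N2 island, IV 11974793 to 11980292.

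The fifth gain, IV 5977319 to 6008817, was also the longest locus, 31499 bp, and lay inside the piRNA cluster. All 62 of its windows were called. Its level was 2.71, 2.48 and 3.02 in met-2 nrde-3, and 0.27, 0.56 and 0.29 in nrde-3. It was 0.98, 0.87 and 0.99 in lin-61 met-2, 0.51, 0.46 and 0.53 in lin-61, and 0.53 and 0.56 in N2. The change against nrde-3 was 2.41 (median adjusted p = 2.96e-09, edgeR). met-2 nrde-3 lay well above every other genotype here, and lin-61 met-2 lay above its own single mutant by a smaller step.

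The strongest loss was of another kind, a short N2 island inside the centre. At IV 8568808 to 8572307 the level was -0.12, -0.03 and -0.14 in met-2 nrde-3, and 2.13, 2.97 and 1.64 in nrde-3. It was 0.18, 0.33 and 0.30 in lin-61 met-2, 1.04, 1.00 and 0.76 in lin-61, and 3.11 and 3.28 in N2. Every mutant preparation lay below both of N2, nrde-3 replicate 2 being the nearest, and those of met-2 nrde-3 lay below input. The change of met-2 nrde-3 against nrde-3 was -2.51 (median adjusted p = 7.03e-08, edgeR). About 10 kb further right, IV 8582307 to 8583806 stood at -0.17 ± 0.08 in met-2 nrde-3, against 1.20 ± 0.48 in nrde-3 (-1.45, 0.000163).

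The other 3 leading losses lay at the left edge. IV 4114827 to 4125826 had 0.33 ± 0.09 in met-2 nrde-3, against 1.65 ± 0.62 in nrde-3 (change -1.42, median adjusted p = 0.000212, edgeR). IV 3942327 to 3970826, the longest lower locus with 28500 bp, had 0.11 ± 0.06 in met-2 nrde-3, against 1.27 ± 0.55 in nrde-3 (-1.25, 0.000208). IV 4039827 to 4042326 had 0.02 ± 0.11 in met-2 nrde-3, against 1.03 ± 0.51 in nrde-3 (-1.08, 0.0213). This last call was lost without met-2 nrde-3 replicate 2 (-1.05, adjusted p = 0.103, edgeR) and without nrde-3 replicate 2 (-0.74, 0.0691). The nrde-3 group spread widely at all of these loci, with replicate 2 the highest at each.

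**Figure D3:**
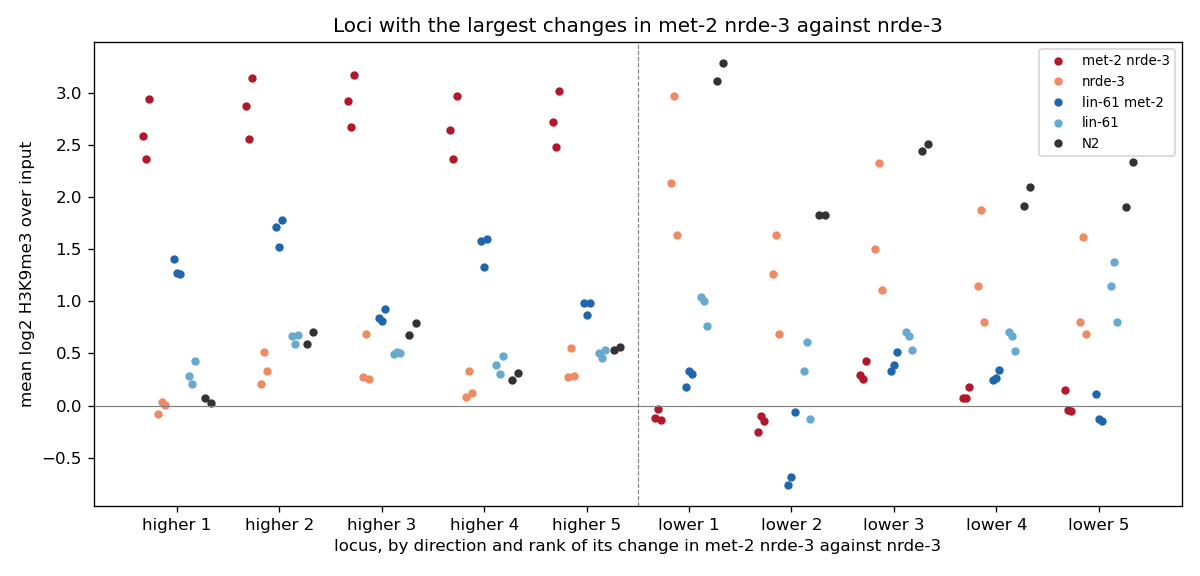
Level per preparation (points, y axis, mean log2 H3K9me3 over input) at the 5 loci that rose most and the 5 that fell most in met-2 nrde-3 against nrde-3 (x axis, left and right of the dashed line). met-2 nrde-3 lies above all other genotypes at each of the higher loci, and N2 lies highest at each of the lower ones, up to 3.28.

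The comparison of lin-61 met-2 with lin-61 asked the same of MET-2 loss where LIN-61 is missing. Gains again outnumbered losses in the centre of IV, but with smaller changes and no excess over the genome. edgeR called 1213 windows higher (7.26%, against a background of 7.83%) and 504 lower (3.02%, against 6.70%), or 10.3% in either direction against 14.5%. Higher windows had a median log2 change of 0.77 and reached 2.48, and lower ones had a median of -0.69. The total of 1717 was 916 without lin-61 replicate 1 and 952 without lin-61 replicate 2. The higher share was 12.2% in the centre of II, 7.32% in that of III and 22.8% in that of V. At the edge 6.02% of the tested windows were lower, against 2.88% further in, and the edge held 45 of the 504 lower windows (8.93%). In the adjoining left arm of IV 15.7% were lower.

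The calls joined into 89 higher loci with 296 kb and 25 lower loci with 52.5 kb. The leading gain was at IV 10864298 to 10867797, with 2.16, 1.81 and 2.11 in lin-61 met-2, and 0.44, 0.36 and 0.46 in lin-61. There met-2 nrde-3 had 3.36 ± 0.29, nrde-3 0.94 ± 0.35 and N2 1.41 ± 0.08. The change against lin-61 was 1.64 (median adjusted p = 0.000201, edgeR). N2 lay between lin-61 and lin-61 met-2 at this locus, whereas at the next it had no mark. At IV 7626312 to 7628311 the level was 1.42, 1.25 and 1.55 in lin-61 met-2, against -0.06, -0.30 and -0.19 in lin-61 (1.64, 4.79e-05).

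The next gain lay in the piRNA cluster. At IV 4767824 to 4769823 the level was 2.68, 2.08 and 2.61 in lin-61 met-2, against 0.99, 0.88 and 0.85 in lin-61 (change 1.59, median adjusted p = 0.00097, edgeR). met-2 nrde-3 stood at 3.27 ± 0.31 and N2 at 1.53 ± 0.31 there. IV 12141292 to 12146291 had 1.6 ± 0.19 in lin-61 met-2, against 0.12 ± 0.03 in lin-61 (1.5, 0.000615). IV 8259309 to 8265808, inside the strongest gain of met-2 nrde-3, had 1.78 ± 0.15 in lin-61 met-2, against 0.47 ± 0.14 in lin-61 (1.35, 0.00116). The longest gain, IV 10668799 to 10681297 with 12499 bp, likewise lay inside a leading gain of met-2 nrde-3. It had 1.62 ± 0.15 in lin-61 met-2, against 0.36 ± 0.11 in lin-61 (1.29, 0.00221).

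Losses were short. The strongest and longest, IV 4039327 to 4043326 with 4000 bp at the left edge, had -0.03, -0.15 and -0.13 in lin-61 met-2, against 0.94, 1.09 and 0.63 in lin-61 (change -1.02, median adjusted p = 0.00938, edgeR). Without lin-61 replicate 2 it did not pass (-0.91, adjusted p = 0.0531, edgeR). IV 4049827 to 4052826 had -0.20 ± 0.06 in lin-61 met-2, against 0.70 ± 0.08 in lin-61 (-0.92, 0.00433). IV 6373317 to 6375316, in the piRNA cluster, had -0.29 ± 0.36 in lin-61 met-2, against 0.61 ± 0.09 in lin-61 (-0.86, 0.00774). The other 2 of the 5, IV 4106327 to 4107826 and IV 4177326 to 4178825, lay at the edge with changes of -0.87 and -0.86 (0.0174 and 0.0226). The first of these did not pass without lin-61 replicate 1 or lin-61 met-2 replicate 1 (-0.77 and -0.81, adjusted p = 0.104 and 0.0585, edgeR). The second did not pass without lin-61 replicate 1 or 2 or lin-61 met-2 replicate 3 (-0.83, -0.73 and -0.75, adjusted p = 0.0914, 0.121 and 0.0751, edgeR). The locus in the cluster was the only one of the 5 at which lin-61 lay above N2, which had -0.41 ± 0.23.

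The 2 comparisons share no library, so their calls could be set side by side. Of the higher windows, 635 were called in both, 25.2% of the 2520 of the nrde-3 background and 52.3% of the 1213 of the lin-61 background. Of the lower windows, 38 were called in both, 9.97% of 381 and 7.54% of 504. The lower lists are shorter, which by itself lowers such shares, and no test of either overlap was made. Another 39 windows were higher in met-2 nrde-3 and lower in lin-61 met-2, and 0 the reverse. Over the 16713 windows the 2 changes correlated at r = 0.38 (Spearman's rho 0.19), a description across windows that share their libraries. The correlation was 0.17 inside the piRNA cluster and 0.44 in the rest.

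Levels at the called windows gave the same contrast. At the 2520 windows that rose in met-2 nrde-3, the median level in lin-61 met-2 was 0.41 (-0.10 over all tested windows of the centre), in lin-61 0.12 (-0.14) and in N2 -0.16 (-0.22). At the 1213 windows that rose in lin-61 met-2, the median level in met-2 nrde-3 was 0.48 (-0.03) and in nrde-3 -0.05 (-0.10). So windows found in either background stood above the typical window in the double mutant of the other, while N2 had a median of -0.16 at both sets, close to its usual level. The inputs at these windows were at 0.984 and 0.992 times the median window.

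The test of the difference between the 2 MET-2 effects called 1275 windows with a higher signed change in the nrde-3 background (7.63%, against a background of 5.04%) and 205 with a lower one (1.23%, against 5.62%), or 8.86% in either direction against 10.7%. The H3K9me3 libraries alone gave 1443 and 256. The calls joined into 122 and 3 loci. The strongest was again the long locus of the piRNA cluster, IV 5979319 to 6003818, where the 2 changes differed by 2.27 (median adjusted p = 0.000136, edgeR). Here met-2 nrde-3 stood at 2.89 ± 0.29 and nrde-3 at 0.21 ± 0.12, and lin-61 met-2 at 0.89 ± 0.07 and lin-61 at 0.45 ± 0.05. At IV 7599812 to 7601311 only met-2 nrde-3 stood far above input, at 2.38 ± 0.21, and lin-61 met-2 had 0.24 ± 0.18 (difference of changes 2.25, 5.55e-05). The strongest difference of the other sign, at IV 8569308 to 8572307, lay in the lost island (-1.92, 0.00415). The other 3 leading loci of the first kind had differences of 2.14 to 2.25. Of the 3 loci of the second kind the other 2, IV 4114827 to 4116326 and IV 4153826 to 4157325, were unsteady. Both lost their call without N2 replicate 2 (changes -1.52 and -1.22) and without any 1 of the met-2 nrde-3 preparations. Without met-2 nrde-3 replicate 2 the adjusted p was 0.0745 and 0.114 (edgeR). Without nrde-3 replicate 2 the changes were -1.04 and -0.85 (adjusted p = 0.0663 and 0.09, edgeR). Because the 2 backgrounds come from different library series, the difference between the MET-2 effects cannot be told apart from a difference between the series.

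The piRNA cluster had smaller shares of called windows than the rest of the centre, a difference in shares that was not tested. In met-2 nrde-3 against nrde-3, 7.21% of the tested windows of the cluster were higher, against 18% in the rest, and 0.752% were lower, against 2.85%. The left edge, part of the rest, held 238 of the 381 lower windows of the centre. In lin-61 met-2 against lin-61, 4.71% were higher, against 8.20%, and 2.74% were lower, against 3.12%. The median change there was 0.08 in the cluster and 0.07 in the rest. By Mb, the higher share in met-2 nrde-3 against nrde-3 was 0% in the 206 tested windows before 4 Mb, 5.85% from 4 to 5 Mb, 6.29% from 5 to 6 Mb and 7.94% from 6 to 7 Mb, and then 22.5%, 21.8%, 17.3%, 23.9%, 16.3% and 14.4% in the 6 steps from 7 to 13 Mb. Each Mb to the right of the cluster thus had a larger share than any Mb to its left or inside it. Low shares were not limited to the cluster, since the left edge outside it had 4.41% higher.

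As a level, the cluster lay below the rest, which includes the left edge, within every preparation but 1. The difference was -0.20, -0.18 and -0.24 in met-2 nrde-3, and 0.03, -0.09 and -0.04 in nrde-3. It was -0.17, -0.10 and -0.14 in lin-61 met-2, -0.11, -0.11 and -0.12 in lin-61, and -0.08 and -0.12 in N2. The exception, nrde-3 replicate 1 at 0.03, had an input in which the cluster stood 0.908 times as deep as the rest. The other inputs used stood at 0.947 to 0.980 times, and whether this gave the exception was not tested. Only met-2 nrde-3 stood clear of its comparisons, with p = 0.1 against nrde-3 and p = 0.2 against N2, the smallest that exact two-sided permutation allows (0.48 after adjustment over 6). For lin-61 met-2 against lin-61 the groups overlapped (p = 0.4, exact). With the left edge left out, the windows further in, the cluster among them, averaged -0.18 in N2 and -0.08 in nrde-3. The cluster averaged -0.19 and -0.07, so in N2 and nrde-3 it was close to the windows further in. In met-2 nrde-3, lin-61 met-2 and lin-61 the cluster averaged -0.01, -0.15 and -0.20, against 0.13, -0.06 and -0.14 further in. The cluster was not without gains, the long locus near 6 Mb among them: 34 of the 254 higher loci of met-2 nrde-3 and 9 of the 89 of lin-61 met-2 lay in it.

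**Figure D4:**
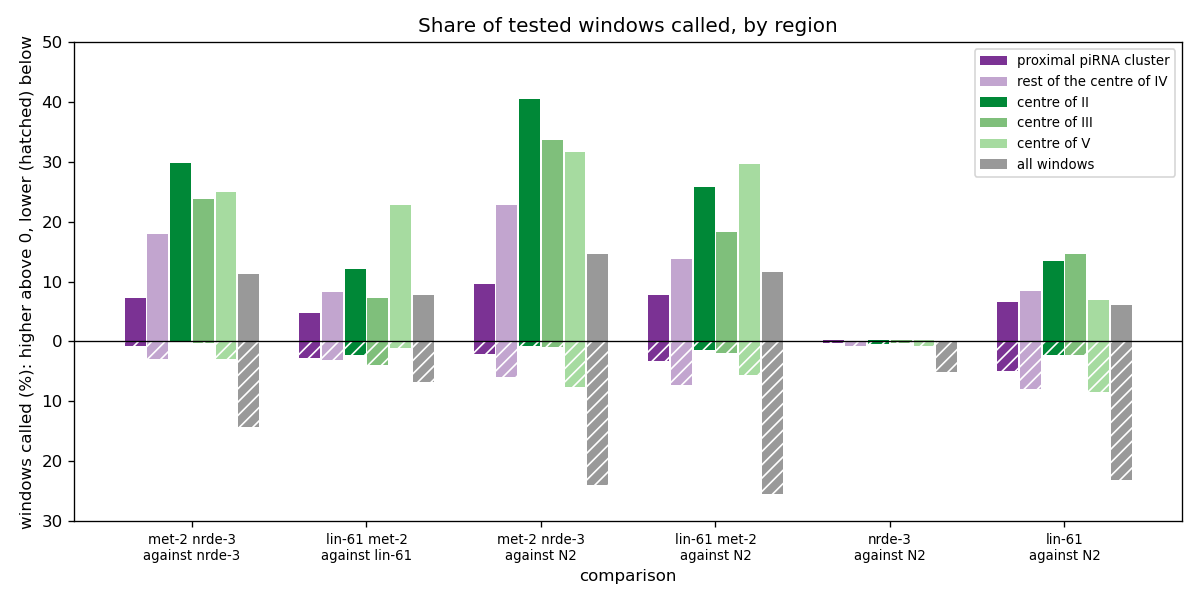
Share of tested windows called higher (above 0) and lower (hatched, below 0), in percent (y axis), in the piRNA cluster and the rest of the centre of IV, the centres of II, III and V and all windows, for 6 comparisons (x axis). In met-2 nrde-3 against nrde-3 the cluster has 7.21% higher and the rest of the centre 18%.

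Where N2 carried the mark, windows at 1 or more joined into 56 islands covering 296 kb, 21 of them (198 kb) at the left edge, 35 (98 kb) further in and 9 of those in the piRNA cluster. Islands were chosen by their N2 level, so lower values elsewhere are partly given by the choice. The median island level was 0.51 in met-2 nrde-3, 0.79 in nrde-3, 0.55 in lin-61 met-2, 0.64 in lin-61 and 1.49 in N2. In met-2 nrde-3 the islands spread the most, between -0.17 and 3.81. Levels below 0.5 were found at 28 islands in met-2 nrde-3, 3 in nrde-3, 24 in lin-61 met-2 and 19 in lin-61.

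The edge and the inner islands parted in met-2 nrde-3 against nrde-3, a comparison without N2. Counting an island as called where its median adjusted p (edgeR) passed, 9 of the 21 edge islands fell and 2 rose, while 7 of the 35 inner islands fell and 12 rose. In lin-61 met-2 against lin-61, 1 edge island fell and the other 20 passed in neither direction, and 1 inner island fell and 5 rose. The longest island, IV 4144326 to 4170325 with 26000 bp, had 0.33, 0.33 and 0.49 in met-2 nrde-3, against 1.17, 1.96 and 0.83 in nrde-3. It had 0.47, 0.45 and 0.45 in lin-61 met-2, against 0.59, 0.61 and 0.50 in lin-61, and 2.05 and 2.24 in N2. Every mutant preparation lay below both of N2, nrde-3 replicate 2 being the nearest, and its change in met-2 nrde-3 against nrde-3 was -1.02 (median adjusted p = 0.0047, edgeR).

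The next 2 edge islands behaved alike. IV 3915827 to 3940326 had 0.42 ± 0.05 in met-2 nrde-3, against 1.23 ± 0.53 in nrde-3 (change -0.88, median adjusted p = 0.0175, edgeR), and IV 3943827 to 3962326 had a change of -1.44 (8.63e-05). Not all of the edge did. At IV 3990327 to 4006326 met-2 nrde-3 had 1.84, 1.63 and 2.09, against 1.37, 2.25 and 0.98 in nrde-3, groups that overlapped (change 0.26, adjusted p = 0.53, edgeR). At IV 4128327 to 4143325 met-2 nrde-3 had 1.76, 1.58 and 1.99, against 2.02, 2.99 and 1.57 in nrde-3 (-0.52, 0.249), and N2 had 3.01 and 3.19. The next longest islands, IV 4008327 to 4022826, IV 4113327 to 4126826, IV 3963327 to 3971826 and IV 4212826 to 4220325, had changes of -0.12, -1.31, -0.91 and -0.60, of which -1.31 and -0.91 passed (0.000278 and 0.00496, edgeR) and the other two did not (0.251 and 0.127). At the right end, IV 12948789 to 12956288, the only other island among the 10 longest, had 0.66, 0.52 and 0.67 in met-2 nrde-3, against 0.85, 1.68 and 0.76 in nrde-3 (-0.54, 0.128).

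Some inner islands stood higher in met-2 nrde-3 than in N2 itself. They are named here after their values were seen. IV 11974793 to 11980292 had 3.77, 3.58 and 4.06 in met-2 nrde-3 and 1.34 and 1.58 in N2, and its change against nrde-3 was 2.97 (median adjusted p = 7.14e-10, edgeR). IV 4768324 to 4769823, in the piRNA cluster, had 3.51, 3.05 and 3.71 in met-2 nrde-3. Its level was 2.85, 2.24 and 2.72 in lin-61 met-2, against 1.47 and 1.96 in N2. Both double mutants had risen there, by 2.42 against nrde-3 (3.78e-07) and by 1.59 against lin-61 (0.00129). IV 6005819 to 6008817, the right end of the long piRNA cluster locus, had 3.54, 3.21 and 3.78 in met-2 nrde-3 and 2.99 and 3.08 in N2, a change that did not pass (0.49, median adjusted p = 0.325, edgeR) and held 0 windows called higher. It was the only N2 island within that locus.

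**Figure D5:**
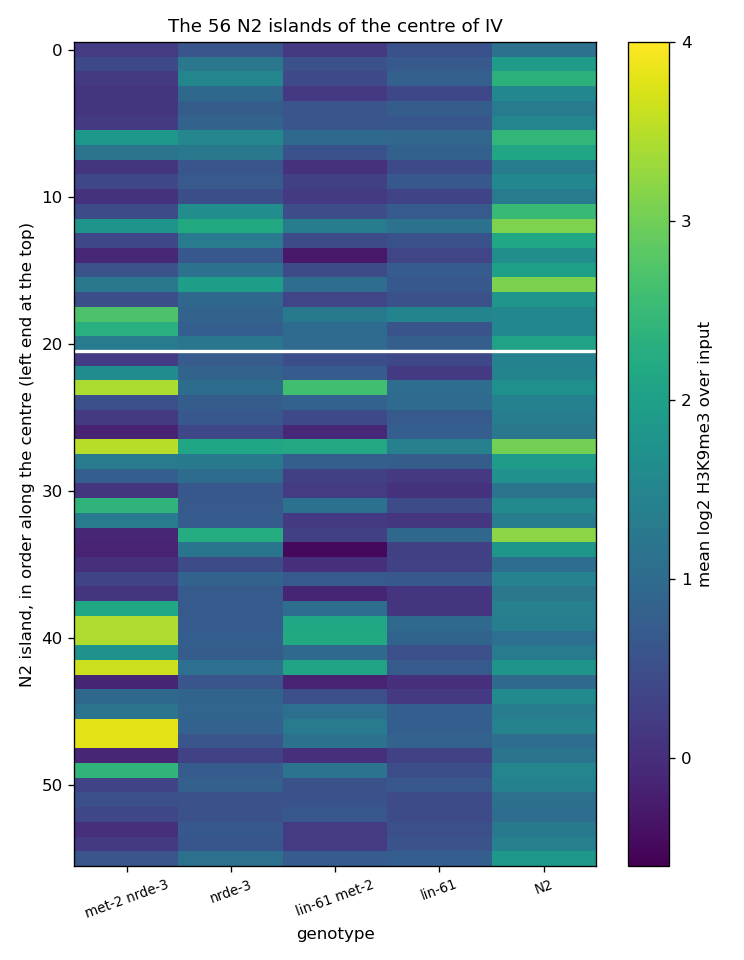
Mean log2 ratio of H3K9me3 over input (colour) at the 56 N2 islands, in order along the centre (y axis, the white line marks the end of the left edge), in the 5 genotypes (x axis). Inner islands of met-2 nrde-3 range up to 3.81, and most edge islands are brightest in N2, by which they were chosen.

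How much of the mark needs the Argonaute was asked by setting nrde-3 against N2. In the centre of IV 95 windows were lower (0.568%, against a background of 5.16%) and 27 higher (0.162%, against 0.113%), or 0.730% in either direction against 5.28%. The H3K9me3 libraries alone gave 150 lower and 19 higher. The 56 N2 islands were chosen by their N2 level, so lower values in nrde-3 are partly given by the choice. Their median change was -0.67, and 4 of the 56 were called lower by their median adjusted p (edgeR). Lower windows joined into 9 loci, all outside the piRNA cluster, and the higher ones were too scattered to form any. The leading loss, IV 11106297 to 11108296, had -0.30, -0.09 and -0.20 in nrde-3, against 1.07 and 1.44 in N2 (change -1.49, median adjusted p = 9.61e-05, edgeR). It was near input in both double mutants too. Without N2 replicate 3 it did not pass (-1.29, adjusted p = 0.0825, edgeR).

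The other leading losses, IV 4176326 to 4179325, IV 4038827 to 4042326, IV 3991327 to 3992826 and IV 4069327 to 4071826, lay at the left edge with changes from -1.04 to -0.90 (median adjusted p = 0.0218 to 0.0383, edgeR). Each of these 4 calls was lost without N2 replicate 2 or 3 and without nrde-3 replicate 1 or 3. That at IV 3991327 was also lost without any 1 of the met-2 nrde-3 or lin-61 preparations (adjusted p up to 0.0602, edgeR), and that at IV 4069327 without met-2 nrde-3 replicate 1 or 2 (0.0516 and 0.0509). Without N2 replicate 3, for example, the first had a change of -0.90 and an adjusted p of 0.502 (edgeR). The total of 122 windows was itself unsteady. It was 4, 842 and 5 without nrde-3 replicate 1, 2 or 3, and 48 and 1 without N2 replicate 2 or 3. It was 59, 59 and 65 without met-2 nrde-3 replicate 1, 2 or 3, 75 and 77 without lin-61 replicate 1 or 3, and 240 without lin-61 met-2 replicate 1. No statement on the number of windows that need NRDE-3 can therefore rest on it.

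The part of LIN-61 was asked about by lin-61 against N2, across the library series. In the centre 1317 windows were higher (7.88%, against a background of 6.09%) and 1188 lower (7.11%, against 23.2%), or 15.0% in either direction against 29.3%. Without N2 replicate 2 or 3 the total of 2505 was 1285 or 1195. Lower windows were frequent at the left edge, which was drawn after the values were seen, with 57.5% of its windows against 4.75% further in. In the adjoining left arm of IV they took 39.6%. The leading loss of the centre lay at this edge. IV 4221826 to 4224825 had 0.74, 0.72 and 0.54 in lin-61, against 3.04 and 3.16 in N2 (change -2.46, median adjusted p = 2.86e-06, edgeR). The next was the inner island at IV 8568808 to 8572307 (-2.27, 8.99e-06), and then IV 4128327 to 4141825 (-2.12, 4.01e-05), and the 2 after it had -1.74 and -1.60. The longest was IV 3943827 to 3971826, 28000 bp (-1.40, 0.000318). Gains were smaller and short. IV 11593295 to 11594794 led them with 0.58, 0.55 and 0.59 in lin-61, against -0.76 and -0.56 in N2 (1.28, 0.000101), and IV 6373317 to 6374816 in the piRNA cluster had 0.71 ± 0.10 in lin-61, against -0.46 ± 0.23 in N2 (1.21, 0.000104). The other 3 leading gains had changes of 1.08 to 1.10. The longest, IV 11580795 to 11587794, had a change of 0.71 (0.0287) and was not called without N2 replicate 2 or 3 or lin-61 replicate 1 or 3 (adjusted p = 0.151, 0.25, 0.0732 and 0.0641, with changes of 0.77, 0.66, 0.69 and 0.71).

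Against N2, both double mutants had more windows higher than lower in the centre, and their lower calls were frequent at its edge. In met-2 nrde-3, 3219 windows were higher (19.3%, against a background of 14.6%) and 815 lower (4.88%, against 24.0%), or 24.1% in either direction against 38.6%, and the H3K9me3 libraries alone gave 3215 and 915. In lin-61 met-2, 2040 were higher (12.2%, against 11.6%) and 1037 lower (6.2%, against 25.5%), or 18.4% in either direction against 37.1%. The higher share of lin-61 met-2 was thus near the background. The centres of II, III and V had larger higher shares, 40.6%, 33.7% and 31.7% in met-2 nrde-3 and 25.8%, 18.3% and 29.7% in lin-61 met-2. Lower calls of met-2 nrde-3 took 57.0% of the edge and those of lin-61 met-2 took 65.9%, against 2.44% and 3.41% of the windows further in. In the left arm of IV they took 47.6% and 53.8%. That edge was drawn after the values were seen, a choice that favours falls against N2 there. The total of 4034 for met-2 nrde-3 was 2652 without N2 replicate 3. That of 3077 for lin-61 met-2 was 1816 and 1708 without N2 replicate 2 or 3.

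The largest loss in both was the inner island at IV 8568808 to 8572307, where met-2 nrde-3 changed by -3.34 (median adjusted p = 1.59e-09, edgeR) and lin-61 met-2 by -2.96 (2.18e-08). The other leading losses changed by -1.87 to -1.74 for met-2 nrde-3, and by -2.08 to -1.70 for lin-61 met-2. The longest losses lay at the edge, IV 3941327 to 3978826 in met-2 nrde-3 (37500 bp, -1.70) and IV 3988827 to 4035826 in lin-61 met-2 (47000 bp, -1.32). Among the gains, IV 8258809 to 8269308 led in met-2 nrde-3, with 2.53 ± 0.28 against 0.04 ± 0.03 in N2 (2.55, 1.12e-09), and the next 4 had changes of 2.34 to 2.42. IV 8258809 to 8267308 led in lin-61 met-2, with 1.66, 1.46 and 1.47 against 0.14 and 0.03 in N2 (1.49, 0.000459). The next was IV 9934802 to 9946801, with 1.81 ± 0.28 in met-2 nrde-3, 1.35 ± 0.11 in lin-61 met-2 and -0.05 ± 0.01 in N2 (change of lin-61 met-2 1.44, 3.97e-05), and the other 3 had changes of 1.35 to 1.43. The longest gain of lin-61 met-2, IV 7685811 to 7698310 (0.95, 0.00518), lay in the bin in which both double mutants had their maximum, and was not called without N2 replicate 2 (0.92, adjusted p = 0.0569).

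The balance of the comparisons with N2 moved with the scaling. With library totals in place of the trimmed mean, the median change over all tested windows moved to 0.61 in met-2 nrde-3, 0.45 in nrde-3, 0.71 in lin-61 met-2 and 0.64 in lin-61, against 0.03, -0.02, -0.05 and -0.13. The higher part of the calls in the centre then was 96.8%, 99.6%, 97.4% and 97.6%, against 79.8%, 22.1%, 66.3% and 52.6%. Relative to all windows, the median change of the centre hardly moved. That of met-2 nrde-3 was 0.19 and that of lin-61 0.16 under both scalings. For the double mutants against their single mutants the higher part stayed at 91.0% against 86.9% and at 74.8% against 70.6%.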

How the data were processed

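The authors deposited 1 table of raw counts per 500 bp window (whole numbers, not normalized), with 30 columns for 30 libraries, 2 sequencing runs of each being listed as 60 sample records. The build was ce10, per the submitters' processing notes; the aligner, the treatment of duplicates and the counting rule are not given in the sources used here. No genome or annotation of that build was used, so windows carry no gene names or sequences.

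N2 replicate 1 was left out. Columns were matched to groups by their names. Windows were kept where the mean scaled input differed by at most 1.5 times between genotypes. Levels are log2 ratios with a pseudocount of 8 after TMM scaling (factors 0.581 to 1.14). Calls come from edgeR 4.0.16 (R 4.3.3) with a quasi-likelihood fit on all windows (common dispersion 0.0153), 1 coefficient per genotype and library type, the contrast being the change in H3K9me3 over input, and p-values adjusted over 184418 windows. Single values per preparation were tested by exact permutation.

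Loci are called windows of 1 direction joined across at most 1 other window, tested or not, with at least 3 calls and no overlap between the groups' preparations. Loci of the difference between the MET-2 effects were not checked for overlap. The 5 with the largest change per comparison and direction, and the longest, are named or given by range, with the 10 longest N2 islands. Members, lists and rules were chosen with earlier results of these data known.

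The calling of windows was tested on simulated data, and the joining of loci was not. Same-numbered preparations of different genotypes did not deviate together: the correlation of their H3K9me3 deviations was -0.14 to 0.12 over 26 pairs, and 2 were over 0.1. Alternatives were other scalings, filters, tools (DESeq2 1.42.0, limma 3.58.1), replicate blocks, wider windows, the H3K9me3 libraries alone, all 30 libraries as labelled and leaving out each preparation. Counts without molecular identifiers carry counting error of PCR copies that is not measured here.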

Additional observations from a re-analysis of the deposited data

Results flagged for a closer look

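The test of the difference between the MET-2 effects of the 2 backgrounds called 1480 windows of the centre of IV (edgeR's quasi-likelihood interaction contrast). That was 8.86% of those tested, below the 10.7% over all windows. The 2 backgrounds come from different library series, from which this difference cannot be told apart. In 39 windows the change was called higher in met-2 nrde-3 against nrde-3 and lower in lin-61 met-2 against lin-61. Each of these was also called by that contrast. Since the contrast is the difference of the 2 changes, this was largely given in advance. In a library outside the comparisons, the one labelled N2 input replicate 1, the N2 islands had 2.96 times the depth of the median window of the centre, above the 0.863 to 0.951 of the other inputs. Groups of 2 or 3 preparations are too small for a test of single outlying preparations.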

How the results depend on the processing

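With all 30 libraries as labelled, N2 replicate 1 included, windows called in the centre were 1955 in met-2 nrde-3 against N2, 0 in nrde-3 against N2, 866 in lin-61 met-2 against N2, 28 in lin-61 against N2, 1907 in met-2 nrde-3 against nrde-3, 647 in lin-61 met-2 against lin-61 and 474 for the difference between the MET-2 effects. The 0 of nrde-3 against N2 is edgeR's, with 869 windows at an unadjusted p under 0.05. Without N2 replicate 1, DESeq2 called 364 windows there and limma on ratios divided by the SD of each preparation 1. Library totals gave 12601, 5120, 13148 and 11801 calls for met-2 nrde-3, nrde-3, lin-61 met-2 and lin-61 against N2. A log2 change of at least 1 left 1810, 28, 973 and 664 of these, 1341 in met-2 nrde-3 against nrde-3 as well as 269 in lin-61 met-2 against lin-61. Windows of 1000 bp, of which there are fewer, gave 2482, 1914 and 1607 for met-2 nrde-3, lin-61 met-2 and lin-61 against N2 and 1747 for met-2 nrde-3 against nrde-3. That limma fit gave 1509 for lin-61 against N2, and all windows with a count gave 200 for nrde-3 against N2. Apart from the windows of 1000 bp, the cause was not tested.

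Without each preparation in turn, calls ranged from 2652 to 4517 (met-2 nrde-3 against N2), 1 to 842 (nrde-3 against N2), 1708 to 3215 (lin-61 met-2 against N2), 1195 to 3053 (lin-61 against N2), 2247 to 3170 (met-2 nrde-3 against nrde-3), 916 to 1957 (lin-61 met-2 against lin-61) and 1002 to 1692 (the difference). The mean level of lin-61 minus N2 ranged from -0.0224 to 0.0233 and was -0.0137 over the mean input of all genotypes. The cluster minus the rest in lin-61 against N2 ranged from -0.0356 to 0.00829, and was 0.00473 with all libraries. IV minus the other centres in nrde-3 against N2 was 0.0330 with all libraries. A replicate block on the number gave 3979, 115, 3037, 2447, 2873, 1632 and 1415 calls in the order of the first sentence and moved no count by 1.5 times; the numbers do not pair the samples.

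Of 69 named loci under their alternatives, 1670 values kept direction and call, 121 kept the direction only, and 3 turned, all with all 30 libraries: IV 3991327 to 3992826 (0.176) and IV 4038827 to 4042326 (0.0206) in nrde-3 against N2, and IV 4128327 to 4143325 (0.230) in lin-61 met-2 against N2. Only 2 or 3 preparations per group limit all of these results.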
